A study of Mus musculus with 4 samples.

Results

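Ucp2, Ucp3, Angptl4, Acot1, Acot2, Ehhadh, Ces1d, Cpt1a and Cpt1b are lipid genes of heart and muscle, most of which are known to be induced by fatty acids. The set of 9 was chosen by intensities of these same arrays, on which several of the genes were much lower in MnSOD-deficient heart than in control heart. Every probe set annotated to 1 of these symbols was taken, which gave 14 probe sets of 7 genes, of 45037 probe sets and 18193 genes in all. Ucp2 and Cpt1b had no probe set annotated to that symbol alone and were not analysed here.

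The 4 arrays held RNA of d/d mice and of f/f mice, for each genotype 1 of heart and 1 of muscle. The d/d mice carry a deletion of Sod2, the gene of mitochondrial manganese superoxide dismutase (MnSOD), made from floxed alleles by a Cre transgene under the MCK promoter. This promoter, of the muscle creatine kinase gene, is active in striated muscle cells, so other cells of these tissues keep the gene by this design. The f/f mice are homozygous for the same floxed alleles and are the controls, and the labels do not say whether they carry the transgene. Age, sex, the muscle taken and the number of animals behind an array are not stated. With 1 array in each group, no difference between d/d and f/f has an error between animals or a test, and all fold changes describe a pair of arrays.

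Fatty acids that enter a muscle cell activate the nuclear receptors PPARα and PPARδ. With their partner RXR these receptors bind direct repeats of the hexamer AGGTCA and switch on genes that carry, activate, oxidise and export fatty acids. Most of the genes described here are known responders of that kind, with transcripts that climb in fasting and with fat feeding. Their products act at different places: Ucp3 in the inner mitochondrial membrane, Angptl4 in the circulation, Acot1 in the cytosol, Acot2 in the mitochondrial matrix, Ehhadh in peroxisomes, Ces1d in the endoplasmic reticulum and Cpt1a on the outer mitochondrial membrane.

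The windows around the annotated start sites of 5 of the 7 measured genes were found in the RefSeq table (GRCm38.p6), each from 250 bases before to 50 bases after the start. There was no entry for Angptl4 and Ces1d. The windows of Ucp3, Acot1 and Ehhadh are shown because these transcripts were lower in d/d heart, and that of Acot2 because it is the coding gene next to Acot1 on chromosome 12 and differed less. They lie at chr7:100472741-100473040 on the plus strand (Ucp3), chr12:84009252-84009551 on the plus strand (Acot1), chr16:21787785-21788084 on the minus strand (Ehhadh) and chr12:83987611-83987910 on the plus strand (Acot2). They are written 5′ to 3′ on the strand of the gene, and capitals mark the hexamer AGGTCA on either strand.
Ucp3: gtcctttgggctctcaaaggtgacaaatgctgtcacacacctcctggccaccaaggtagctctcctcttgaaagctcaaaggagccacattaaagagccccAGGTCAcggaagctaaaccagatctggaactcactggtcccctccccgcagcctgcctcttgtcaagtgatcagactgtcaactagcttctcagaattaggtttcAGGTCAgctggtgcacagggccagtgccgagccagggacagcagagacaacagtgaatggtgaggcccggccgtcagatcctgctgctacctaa
Acot1: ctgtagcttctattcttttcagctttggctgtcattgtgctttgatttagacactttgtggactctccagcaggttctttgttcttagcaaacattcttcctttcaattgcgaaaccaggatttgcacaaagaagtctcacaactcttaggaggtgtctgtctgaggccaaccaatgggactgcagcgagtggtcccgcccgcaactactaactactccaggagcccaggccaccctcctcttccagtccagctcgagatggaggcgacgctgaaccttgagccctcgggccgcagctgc
Ehhadh: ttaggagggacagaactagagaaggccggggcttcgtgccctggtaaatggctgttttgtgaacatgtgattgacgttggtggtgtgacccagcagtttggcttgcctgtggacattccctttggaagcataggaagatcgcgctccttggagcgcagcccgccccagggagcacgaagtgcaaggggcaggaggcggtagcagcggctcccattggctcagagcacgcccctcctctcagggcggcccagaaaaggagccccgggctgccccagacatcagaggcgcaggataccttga
Acot2: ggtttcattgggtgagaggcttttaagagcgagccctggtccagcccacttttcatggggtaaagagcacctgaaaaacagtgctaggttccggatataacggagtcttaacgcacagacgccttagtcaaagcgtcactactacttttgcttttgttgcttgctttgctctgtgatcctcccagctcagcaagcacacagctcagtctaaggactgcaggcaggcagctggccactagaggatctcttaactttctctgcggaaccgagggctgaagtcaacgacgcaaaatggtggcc

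The Ucp3 window held AGGTCA at 2 places, starting 149 and 44 bases before the start site, and the windows of Acot1, Ehhadh and Acot2 held it at 0. The Cpt1a window, not printed, held it 1 time, on the opposite strand, 94 bases before the start. Of all 32851 windows in the table, 16.3% held AGGTCA on either strand and 1.81% held it at 2 or more places. The full repeat AGGTCANAGGTCA, which contains the hexamer, was in 0.0396% of all windows and in 0 of these 5. A match or its absence describes the letters of these 300 bases only.

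As a check of the genotype, the brightest probe set of Sod2 read 1927 in d/d heart, against 2330 in f/f heart, and 1732 in d/d muscle, against 1668 in f/f muscle. On its dimmest probe set the values were 29.2 in d/d heart, against 67.8 in f/f heart, and 45.5 in d/d muscle, against 61.6 in f/f muscle. Its remaining probe sets had log2 differences (d/d minus f/f) of -0.21 and -0.79 in heart and of -0.14 and -0.31 in muscle. The position of these probes and the deleted exons are not stated, so they may not check the genotype. As a check of the tissues, 10 of 10 cardiomyocyte markers were at least 2-fold higher in f/f heart than in f/f muscle, and 10 of 10 markers of skeletal muscle fibres were at least 2-fold lower. Between 58.0% and 61.1% of probe sets lay above the floor of 7.51, the signal under which values were set to the floor. The array control probe sets stood higher on the d/d heart array, with a median ratio to f/f heart of 1.22 over 61 of them, against 0.929 in muscle. The ratio of the 3′ to the 5′ control probe set, a measure of RNA length, was 0.899 in d/d heart, against 0.847 in f/f heart, and 0.855 in d/d muscle, against 0.869 in f/f muscle for Gapdh. For the dimmer control of pyruvate carboxylase it was 1.78 in d/d heart, against 3.05 in f/f heart, and 2.76 in d/d muscle, against 5.67 in f/f muscle. For the transferrin receptor it was 3.33 in d/d heart, against 2.90 in f/f heart, and 3.15 in d/d muscle, against 4.83 in f/f muscle. The ribosomal RNA control had 0.807 in d/d heart, against 1.14 in f/f heart, and 0.657 in d/d muscle, against 0.549 in f/f muscle, while β-actin was nearly level within each tissue. Some of these controls thus differed between d/d and f/f. The part of the control signals and of RNA quality in the results was not tested.

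In d/d heart 5 of the 7 measured genes were at least 2-fold lower than in f/f heart, 0 were at least 2-fold higher, and all 7 lay below 0 on the log2 scale. These are the values that chose the genes, so they are a description. Their median log2 difference was -1.83, beside -0.05 over the 13836 genes measured in heart, of which 4.22% were at least 2-fold lower and 3.94% at least 2-fold higher. In muscle, which did not enter the choice, 2 of the 7 were at least 2-fold lower in d/d than in f/f, Ucp3 and Angptl4, and 0 were at least 2-fold higher. Over the 14256 genes measured in muscle 3.25% were at least 2-fold lower and 2.64% at least 2-fold higher, with a median of -0.003, and the 7 genes had a median of 0.07. On the brightest probe sets, Ucp3 and Angptl4 were at least 2-fold lower in d/d in both tissues, and Ces1d, Acot1 and Ehhadh in heart only. Acot2 and Cpt1a stayed within 2-fold in both. Within that bound Cpt1a was still lower in d/d, at -0.69 in heart and -0.51 in muscle, and Acot1 was higher in d/d muscle, at 0.78. As a measure of scatter, probe sets of the same gene disagreed in their log2 difference by an SD of 0.388 in heart and 0.400 in muscle, which is disagreement between probes and not between animals. In whole tissue, fewer cells of a type and less RNA per cell cannot be told apart.

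**Figure D1:**
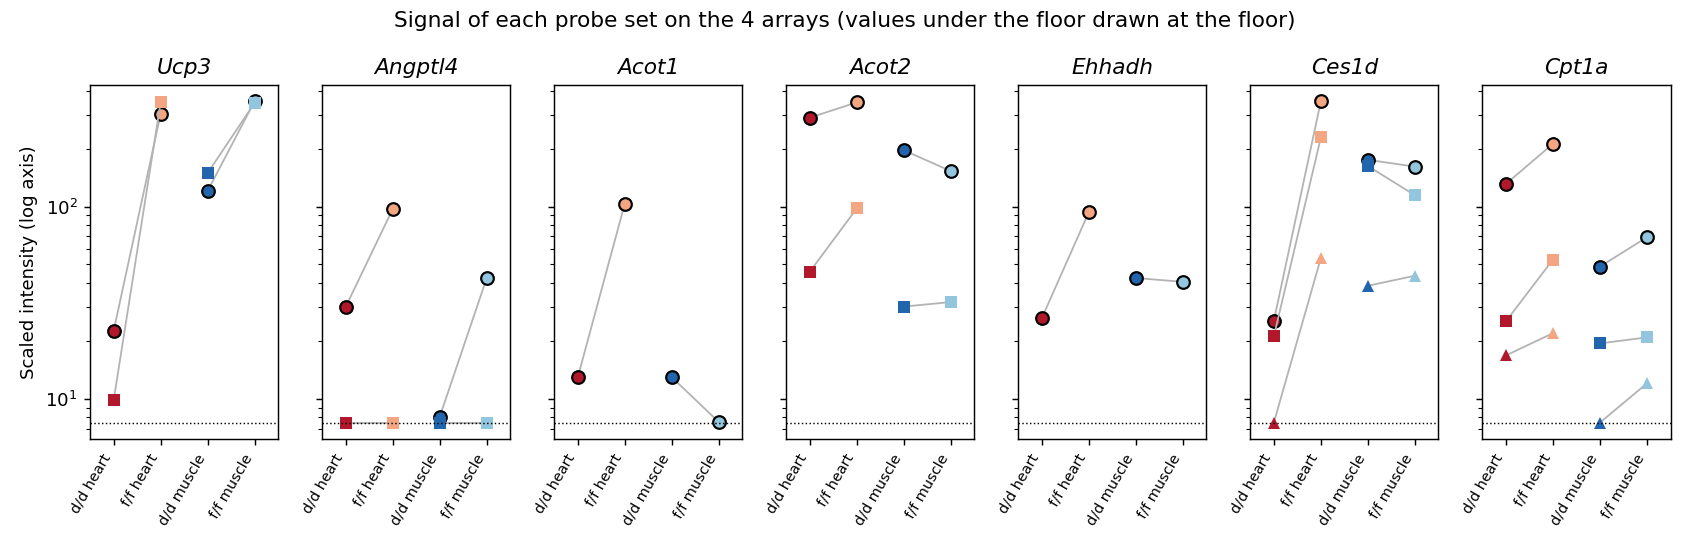
Scaled intensity (log axis) of each probe set of the 7 measured genes on the heart arrays (red, d/d dark and f/f light) and the muscle arrays (blue, d/d dark and f/f light), 1 array each. Lines join the pair of a tissue, a black outline marks the probe set that represents the gene, and the dotted line is the floor of 7.51. Ucp3 stands at 22.5 in d/d heart, against 303 in f/f heart, on the outlined probe set, while Acot2 reads 290 in d/d heart, against 348 in f/f heart.

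Ucp3, a mitochondrial carrier of muscle whose export of fatty acid anions or peroxides and mild uncoupling have been proposed, was lower in both d/d tissues. On its brightest probe set the signal was 22.5 in d/d heart, against 303 in f/f heart, and 121 in d/d muscle, against 354 in f/f muscle. The other read 9.81 in d/d heart, against 348 in f/f heart, and 150 in d/d muscle, against 347 in f/f muscle. The d/d heart was the lowest of the 4 arrays on both probe sets and the d/d muscle the next. The controls of heart and muscle were nearly level, with log2 differences of -0.22 and 0.01 (f/f heart minus f/f muscle). The log2 differences between d/d and f/f were -3.75 and -5.15 in heart and -1.55 and -1.21 in muscle. In heart this was 13.5-fold lower on the brightest probe set and 35.5-fold on the other, and in muscle 2.93-fold and 2.32-fold lower. Among all genes, Ucp3 had the rank 2 from the lowest in heart and the rank 74 of 14256 in muscle. Of the relatives of Ucp3, the brown fat uncoupling protein Ucp1 was under the floor on all 4 arrays, and Slc25a14, Slc25a27 and Slc25a30 were within 2-fold in both tissues, with log2 differences from -0.54 to 0.17 in heart and from -0.58 to -0.08 in muscle.

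Angptl4, a secreted inhibitor of lipoprotein lipase, was also lower in both d/d tissues. It read 30.0 in d/d heart, against 97.0 in f/f heart, and 8.06 in d/d muscle, against 42.5 in f/f muscle, so the d/d muscle signal stood just above the floor. This was 3.23-fold lower in heart, a log2 difference of -1.69, and 5.27-fold lower in muscle, a difference of -2.40. It was the only one of the 7 that lay further below 0 in muscle than in heart, with the rank 9 from the lowest of 14256 genes in muscle and 80 of 13836 in heart. The probe set that carries these values is of a kind that can share sequence with other transcripts, and the second probe set of Angptl4 was under the floor on all 4 arrays. The enzyme that Angptl4 inhibits, Lpl, read 5191 in d/d heart, against 5737 in f/f heart, and 3975 in d/d muscle, against 4177 in f/f muscle. On the dimmer probe set of Lpl the log2 differences were -0.95 in heart and -0.58 in muscle. Of 3 other measured angiopoietin-like genes, Angptl1 was 2.23-fold lower and Angptl7 2.48-fold higher in d/d heart, and all 3 were within 2-fold in muscle.

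Ces1d, a carboxylesterase that hydrolyses triglyceride and is known best from liver and fat tissue, lay lowest of the 13836 genes in d/d heart relative to f/f heart. It read 25.5 in d/d heart, against 354 in f/f heart, and 175 in d/d muscle, against 161 in f/f muscle. The heart difference was -3.80 on the log2 scale, 13.9-fold lower, and the muscle difference was 0.12. Its other probe sets repeated this order in heart. The second read 21.1 in d/d heart, against 229 in f/f heart, 10.8-fold lower, and 162 in d/d muscle, against 114 in f/f muscle. The third was under the floor in d/d heart and read 54.0 in f/f heart, at least 7.19-fold lower, and 38.7 in d/d muscle, against 43.6 in f/f muscle. Over the 3 probe sets the mean log2 difference was -3.36 in heart (SD 0.48 between probe sets) and 0.15 in muscle (SD 0.34). Of the other carboxylesterases on the list, 11 were on the array and 7 of these were under the floor in d/d heart as in f/f heart. Ces5a was 2.06-fold lower in d/d heart, at 62.5 against 129, and Ces1h was at least 2.37-fold higher in d/d muscle, at 17.8 against an f/f muscle signal under the floor.

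Acot1 and Acot2 encode thioesterases that release free fatty acids from acyl-CoA, Acot1 in the cytosol and Acot2 in mitochondria. Acot1 read 12.9 in d/d heart, against 103 in f/f heart, and 12.9 in d/d muscle, against 7.56 in f/f muscle, so f/f heart stood alone above a level near the floor. It was 8.01-fold lower in d/d heart, a log2 difference of -3.00 and the rank 3 from the lowest, and differed by 0.78 in muscle. Acot2 read 290 in d/d heart, against 348 in f/f heart on its brightest probe set, and 196 in d/d muscle, against 153 in f/f muscle. Its other probe set read 45.8 in d/d heart, against 97.9 in f/f heart, 2.14-fold lower, and 30.2 in d/d muscle, against 31.8 in f/f muscle. The log2 differences of Acot2 in heart were thus -0.26 and -1.10, a spread of 0.59 (SD of the 2 probe sets) that exceeds the SD of 0.388 between probe sets of genes at large. Acot1 and Acot2 are close copies of each other, and whether their probe sets also detect the other copy was not tested. Of 12 other thioesterase genes on the array 11 were measured in heart. Acot3 was 2.10-fold lower in d/d heart, at 8.48 against 17.9, and at least 2.18-fold higher in d/d muscle, where f/f muscle was under the floor. Them5 was at least 2.39-fold lower in d/d heart, and Acot13, the brightest, read 1853 in d/d heart, against 1919 in f/f heart.

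Ehhadh, the bifunctional enzyme of peroxisomal β-oxidation, read 26.2 in d/d heart, against 93.5 in f/f heart, and 42.5 in d/d muscle, against 40.6 in f/f muscle on its 1 probe set. It was 3.56-fold lower in d/d heart, a log2 difference of -1.83, and differed by 0.07 in muscle. As with Ces1d, d/d heart was the lowest of the 4 arrays and f/f heart the highest. Among other peroxisomal genes of the fatty acid list the log2 difference in heart was -0.08 for Hsd17b4, an enzyme of the same pathway, -0.67 for the transporter Abcd3 and -0.80 for the division factor Pex11a. Also on that list, Ech1 had -0.98 and Eci2 -0.56. Others lay above 0, with 0.26 for the thiolase Acaa1a and 0.70 for the transporter Abcd2, whose second probe set had -0.70, both near the floor, and Acaa1b was under the floor in both hearts.

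Cpt1a encodes the carnitine palmitoyltransferase that opens the way of fatty acids into mitochondria in liver and is the lesser form in adult heart. It read 131 in d/d heart, against 212 in f/f heart, and 48.7 in d/d muscle, against 69.2 in f/f muscle. Its 3 probe sets were lower in d/d in both tissues. In heart the log2 differences were -0.69, -1.07 and -0.39, with the brightest first. In muscle they were -0.51 and -0.10 on the first of these, and the third was at least 1.60-fold lower, with d/d muscle under the floor. The gene did not reach 2-fold on its brightest probe set in either tissue. Of its partners, Cpt2, the inner membrane transferase, was 2.02-fold lower in d/d heart, at 552 against 1114, with a log2 difference of 0.46 on a probe set near the floor. The carnitine-acylcarnitine carrier Slc25a20 read 792 in d/d heart, against 788 in f/f heart. The carnitine transporter Slc22a5 and carnitine acetyltransferase Crat had log2 differences of -0.90 and -0.80 in heart. Cpt1c, a form known from neurons, was at least 3.01-fold higher in d/d heart, at 22.6 against an f/f heart signal under the floor. In muscle the partners measured lay between -0.49 and 0.51.

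**Figure D2:**
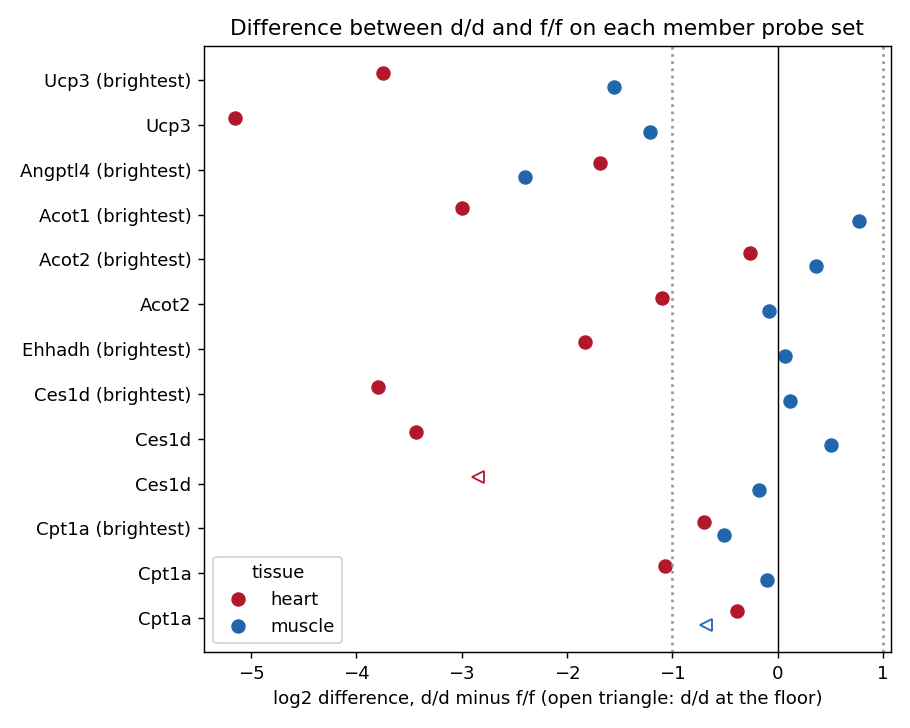
The log2 difference between d/d and f/f (x axis) on each of the 13 member probe sets above the floor, in heart (red) and muscle (blue). Open triangles mark a d/d signal at the floor and dotted lines mark 2-fold. All 13 lie below 0 in heart and 10 of them at or past 2-fold. In muscle 8 lie below 0 and 3 are past 2-fold, those of Ucp3 and Angptl4. Some genes have several of these probe sets, and the heart values chose the genes, so the heart counts are a description. The shares of all probe sets below 0 or past 2-fold were not worked out.

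The heart difference minus the muscle difference showed how far the tissues parted. It was below -1 for 4 of the 7 genes, Ces1d at -3.91, Acot1 at -3.78, Ucp3 at -2.20 and Ehhadh at -1.90, and above 1 for 0 of them, beside 7.72% and 8.49% of the 12711 genes measured in both pairs. Ces1d and Acot1 had the ranks 2 and 4 from the lowest. The heart difference that chose the genes is part of this value, so it is a description too. Acot2 had -0.63, Cpt1a -0.19 and Angptl4 0.71.

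In control mice most of these genes were higher in heart than in muscle. The f/f heart array also entered the choice of the genes, so these values are a description, and nothing is read from their count. In f/f heart 6 of the 7 were at least 2-fold higher than in f/f muscle and 0 were at least 2-fold lower, against 12.1% and 8.30% of the 14364 genes measured in that pair. Acot1 was 13.7-fold higher in f/f heart, Cpt1a 3.07-fold, Ehhadh 2.31-fold, Angptl4 2.28-fold, Acot2 2.28-fold and Ces1d 2.19-fold, while Ucp3 had a log2 difference of -0.22. The SD between probe sets of a gene was 0.534 in this comparison, larger than within a tissue. With no scaling of the arrays the median of all genes in this comparison was 0.47 in place of 0.08, and the count stayed at 6 of 7. Over all genes, 3420 of 14441 were then at least 2-fold higher in f/f heart, in place of 1741 of 14364.

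In d/d mice, where the d/d heart array likewise entered the choice, the same comparison put 2 genes at least 2-fold higher in heart than in muscle, Angptl4 at 3.73-fold and Cpt1a at 2.69-fold, and 2 at least 2-fold lower, Ces1d at 6.87-fold and Ucp3 at 5.36-fold. Over the 14124 genes measured in that pair 15.1% reached 2-fold higher in d/d heart and 10.5% reached 2-fold lower. Acot1 was level between the d/d tissues, with a log2 difference of -0.004, and Ehhadh was at -0.69 and Acot2 at 0.56.

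**Figure D3:**
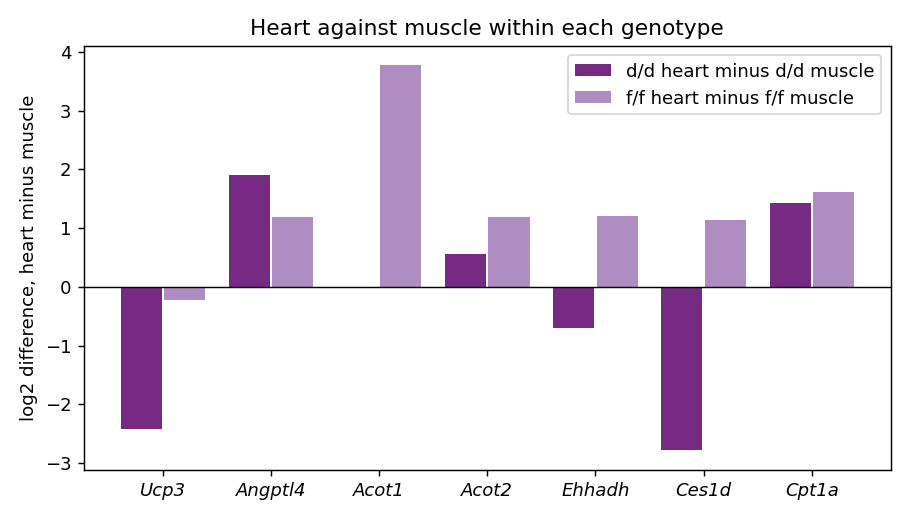
The log2 difference of heart minus muscle (y axis) for the 7 genes, in d/d mice (dark bars) and in f/f mice (light bars), from 1 array per tissue and genotype. In f/f mice 6 of 7 bars are above 1, and in d/d mice Ces1d and Ucp3 stand at -2.78 and -2.42.

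Heart was set against muscle over all 4 arrays with limma, with genotype as a term, which leaves 1 residual degree of freedom. The genes were chosen on both heart arrays, which shapes the heart means and the residuals of this fit, so its p-values for these genes are not independent of the choice and are given as a description. Of the 13 member probe sets tested 2 passed an adjusted p of 0.05, both higher in heart, beside 6.30% of 28659 probe sets higher in heart and 4.71% lower. They were the brightest of Cpt1a, with a log2 difference of 1.52 ± 0.28 (SE; limma adjusted p = 0.0249), and Angptl4, with 1.54 ± 0.31 (adjusted p = 0.0321). Cpt1a was higher in both heart arrays than in both muscle arrays. For Angptl4 the ranges overlapped, since d/d heart at 30.0 lay under f/f muscle at 42.5. The probe sets of Acot2 had 1.11 and 0.88 (adjusted p = 0.096 and 0.123), and those of Ucp3 -1.32 and -1.96 (adjusted p = 0.161 and 0.189). Ces1d, Ehhadh and Acot1 had adjusted p values from 0.190 to 0.768, and the dimmer probe sets of Cpt1a had 0.0745 and 0.159. A gene that parts from its control in 1 tissue only counts as scatter in this fit, so an adjusted p above 0.05 does not show that the tissues were alike, and the number of member probe sets called ran from 0 to 6 with the settings tried.

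Placed in order of signal, neighbouring arrays were not always apart by more than the disagreement between probe sets. For Ucp3, f/f heart and f/f muscle differed by 0.22 on the log2 scale, within the SD of 0.534. For Acot2, d/d heart and f/f heart differed by 0.26 (SD 0.388) and d/d muscle and f/f muscle by 0.36 (SD 0.400). Acot1 did not part d/d heart from d/d muscle, and Ehhadh and Ces1d did not part d/d muscle from f/f muscle, with differences of 0.07 and 0.12. For Cpt1a the 4 arrays ran f/f heart, d/d heart, f/f muscle, d/d muscle, with steps of 0.69, 0.92 and 0.51.

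The wider pathway was described with a list of 48 other genes of fatty acid uptake, storage, oxidation and fuel choice, many of them known PPAR targets. The list was chosen with earlier results of these data known, so its counts and medians in both tissues are a description. Of these 44 were on the array and 42 were measured in heart. In d/d heart 6 were at least 2-fold lower and 1 at least 2-fold higher, with 36 below 0 and a median of -0.55. The background over all genes in heart was 4.22% past 2-fold downward, 3.94% past it upward and 54.6% below 0, with a median of -0.05. Fbp2, a fructose bisphosphatase of muscle, was 6.94-fold lower, at 31.4 in d/d heart against 218 in f/f heart. Cyp4b1, a cytochrome P450, was 2.54-fold lower, Pdk4, the kinase that turns pyruvate dehydrogenase off when fat is burned, 2.24-fold, Acaa2, the last enzyme of mitochondrial β-oxidation, 2.14-fold, the carrier Slc25a34 2.08-fold, and Cpt2 2.02-fold. The gene that was higher was Cpt1c.

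In muscle 41 genes of the list were measured, with a median of 0.02 and 18 below 0, beside a median of -0.003 and 50.4% below 0 over all genes. Pdk4 was 3.53-fold lower in d/d, at 800 in d/d muscle, against 2827 in f/f muscle. Fbp2 was 2.03-fold higher, at 742 in d/d muscle, against 366 in f/f muscle, and the other 39 were within 2-fold, beside 3.25% of all genes at least 2-fold lower and 2.64% at least 2-fold higher. Pdk4 thus shared with Ucp3 and Angptl4 a signal that was at least 2-fold lower in d/d in both tissues. Cd36, the fatty acid translocase, read 2212 in d/d heart, against 2824 in f/f heart and 1243 in d/d muscle, against 1155 in f/f muscle. Plin2, which coats lipid droplets, read 251 in d/d heart, against 373 in f/f heart and 120 in d/d muscle, against 152 in f/f muscle.

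**Figure D4:**
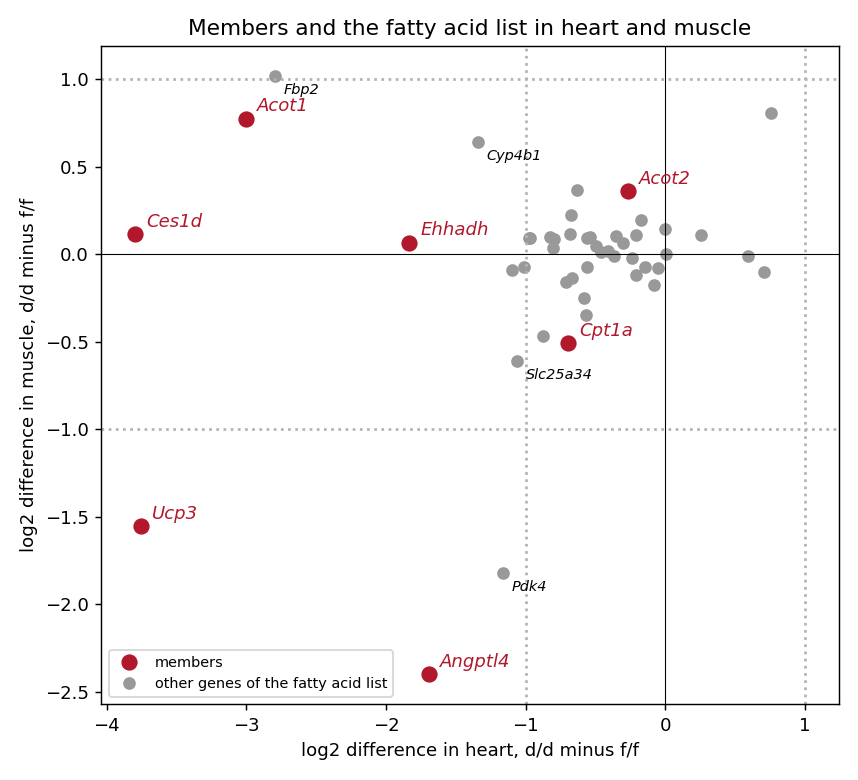
The log2 difference d/d minus f/f in heart (x axis) against that in muscle (y axis) for the 7 members (red) and the genes of the fatty acid list measured in both tissues (grey), with dotted lines at 2-fold. Ucp3, Angptl4 and Pdk4 lie past 2-fold on the low side of both axes, and Ces1d, Acot1, Ehhadh and Fbp2 are among those past it on the low side in heart only.

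Of 10 regulators of these genes, 0 differed by 2-fold in heart on the brightest probe sets, and 1, Pparg, did in muscle. Over all genes 4.22% were at least 2-fold lower and 3.94% higher in heart, and 3.25% and 2.64% in muscle. Ppara, which encodes PPARα, read 142 in d/d heart, against 249 in f/f heart, and 117 in d/d muscle, against 203 in f/f muscle, with log2 differences of -0.81 and -0.79. On its 2 dimmer probe sets the differences were -1.22 and -1.09 in heart and -0.24 and -0.74 in muscle. The coactivator genes Ppargc1a and Ppargc1b had differences of -0.84 and -0.79 in heart and of 0.44 and -0.81 in muscle, and the 4 dimmer probe sets of Ppargc1a lay between -0.52 and -0.23 in heart. Ppard, which encodes PPARδ, was dim, at 27.0 in d/d heart, against 24.5 in f/f heart, and 25.0 in d/d muscle, against 18.8 in f/f muscle. Pparg read 41.9 in d/d heart, against 31.3 in f/f heart and was at least 2.28-fold higher in d/d muscle, at 17.1 against an f/f muscle signal under the floor. The median of the 10 was -0.49 in heart and 0.17 in muscle.

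Genes with the most similar profile over the 4 arrays were sought by the distance between log2 signals centred on each gene's mean, among 10531 other genes above the floor on every array. Nearest to Ucp3 was Adipoq, the fat cell hormone adiponectin, at a distance of 1.16, then Scara5 and Zbtb7b, both within 1.53. Nearest to Ces1d were Efemp1 at 1.04, Tbc1d10c at 1.04 and Zbtb7b at 1.17, and to Acot1 Cep128 at 0.78, Ano10 at 1.06 and Hamp at 1.12. Nearest to Angptl4 were Abhd18 at 0.59, Gbp6 at 0.79 and Cap1 at 0.83. Profiles of smaller span had closer matches: Rarb, Vwa8 and Rabep2 lay within 0.06 of Acot2, Epcam at 0.07, Ccnjl at 0.28 and Gm31679 at 0.31 of Ehhadh, and Fam126a, Hltf and Galm between 0.14 and 0.20 of Cpt1a. With 4 arrays these distances are descriptions.

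Several of the genes are also known from fat cells and macrophages, and some markers of these cells differed between d/d and f/f. Of 11 adipocyte markers on the array 9 were measured in heart, of which 3 were at least 2-fold lower in d/d heart and 8 were below 0, with a median of -0.47. Over all genes in heart 4.22% were at least 2-fold lower and 54.6% were below 0. Adipoq read 10.4 in d/d heart, against 46.6 in f/f heart, and 40.5 in d/d muscle, against 93.4 in f/f muscle, so it was lower in both d/d tissues. Car3 was 6.64-fold and Lipe 2.62-fold lower in d/d heart. The other adipocyte markers measured in heart lay between -0.50 (Scd1) and 0.42 (Pparg) on the log2 scale. The summed signal of the 11 markers was 3835 in d/d heart, against 4663 in f/f heart, and 10835 in d/d muscle, against 10008 in f/f muscle, where Car3, which muscle fibres also express, gave most of it, and Fabp4 and Scd1 were the next brightest. None of the 11 was at 0 on any array, and Lep and Cidec were under the floor on all 4. In muscle, 3 of 9 measured adipocyte markers were at least 2-fold lower in d/d, Adipoq, Retn and Cebpa, and 1 higher, Pparg, while Ces1d differed by 0.12. Over all genes in muscle 3.25% were at least 2-fold lower and 2.64% at least 2-fold higher. Brown fat markers had a summed signal of 3662 in d/d heart, against 4567 in f/f heart and 3303 in d/d muscle, against 3372 in f/f muscle, mostly from Cox7a1, which muscle also expresses. Of the 5 brown fat markers measured in heart, 3 were below 0 and 2 above. Those below were Ppargc1a, Cox7a1 at -0.51 and Elovl3 at -0.22 on the log2 scale, and those above were Dio2 and Cidea. Dio2, the deiodinase that activates thyroid hormone, read 244 in d/d heart, against 23.5 in f/f heart, 10.4-fold higher, and 6.38-fold and 1.69-fold higher on its other probe sets. In muscle Dio2 read 19.8 in d/d, against 46.6 in f/f. Cidea was 1.51-fold higher in d/d heart, Ppargc1a is given above, and Ucp1 was under the floor throughout. The part of fat cells in the differences of Ces1d, Ucp3 and Angptl4 was not tested.

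Macrophage markers went the other way from the lipid genes in heart, with 12 of 14 above 0. Of these, 4 were past 2-fold upward in d/d (Ctss, Cx3cr1, Ptprc and Cd14), and Cd163 was past it downward. Over all genes in heart 6275 of 13836 were above 0, and 3.94% were at least 2-fold higher. The summed signal of the macrophage markers was 3563 in d/d heart, against 2564 in f/f heart. In muscle all 13 macrophage markers measured were below 0, beside 50.4% of all genes. Their summed signal was 965 in d/d muscle, against 1498 in f/f muscle, with Lyz2, Csf1r and C1qb the brightest. Fibroblast markers summed to 9545 in d/d heart, against 5951 in f/f heart, and to 4487 in d/d muscle, against 7023 in f/f muscle, with Dcn, Col3a1 and Col1a2 the brightest. Col1a2 was 3.26-fold and Col1a1 3.08-fold higher in d/d heart, and they were 2.28-fold and 2.73-fold lower in d/d muscle. Cardiomyocyte markers summed to 43963 in d/d heart, against 44485 in f/f heart, with a median log2 difference of -0.17. The brightest, Actc1, Myh6 and Tnnt2, lay between -0.20 and 0.09, and Ryr2, the calcium release channel, was 2.24-fold lower in d/d heart. In muscle 5 of 8 measured cardiomyocyte markers were at least 2-fold lower in d/d (Tnni3, Mybpc3, Nppa, Tnnt2 and Myh6), beside 3.25% of all genes. The cardiomyocyte markers had a median of -1.39 there, and the markers of skeletal muscle fibres had a median of 0.11. The 7 endothelial markers were within 2-fold in both tissues. Hepatocyte markers stood at 25.2 or lower on all 4 arrays. None of the macrophage, fibroblast or cardiomyocyte markers was at 0 on any array. The part of these cell types in the results was not tested.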

How the data were processed

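RNA of d/d and f/f heart and muscle was measured on 1 oligonucleotide array per group. The deposited table gives 1 linear intensity per probe set and array, and the steps by which the authors made these intensity values are not stated. Array controls (64) were left out, each array was scaled to a common 2% trimmed mean, values under the floor of 7.51 (the mean 40th percentile) were set to it, and log2 was taken. Of 45037 probe sets 34945 had 1 symbol in the platform annotation, 932 had several and 9160 were unnamed. The brightest probe set (highest mean log2 signal) represents a gene, and a gene was measured in a pair when either array was above the floor. A fold against a signal under the floor is a lower bound. Heart was compared with muscle with limma 3.58.1 (R 4.3.3), genotype as a term, over probe sets that passed the floor on 2 or more arrays, and p-values were adjusted by Benjamini-Hochberg. The fit was tested on simulated data, where it missed all tissue differences of 1 on the log2 scale and most of 2, and found most of 3. Few probe sets differed between tissues in the simulated data, while 11.0% of 28659 passed on these arrays. The adjustment of p-values was thus stricter there, and the shares found do not carry over to these arrays. Python 3.11.15, pandas 2.3.3 and scipy 1.17.1 were used.

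The members and lists were chosen with earlier results of these data known. All 7 members with a probe set of 1 symbol are given. Of the fatty acid, regulator and family lists, genes past 2-fold are named, up to 10 per list and tissue, with 8 genes named whatever their values, and the 3 nearest profiles of each member. Of the main marker lists the 3 brightest genes are named; other markers, and the other peroxisomal genes, were chosen after their values were seen. The values carry no counts, so the number of arrays limits the precision. Scaling, floor, probe set choice and fold threshold were varied.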

Additional observations from a re-analysis of the deposited data

Results flagged for a closer look

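In 4 of the 7 genes the d/d to f/f difference ran one way in heart and the other in muscle, on the brightest probe sets. The share of all genes that did so was not worked out, so nothing is read from this count. The sign in muscle was not steady. The dimmer probe set of Acot2 had -0.08 there, those of Ces1d had 0.50 and -0.17, and Ehhadh had -0.02 with no scaling of the arrays. The heart difference minus the muscle difference on the log2 scale was -3.91 for Ces1d, -3.78 for Acot1, -1.90 for Ehhadh and -0.63 for Acot2. Each rests on 1 array per group, and the difference between the tissues was not tested. In muscle the values themselves were small, at 0.12 for Ces1d, 0.07 for Ehhadh and 0.36 for Acot2, under the SD of 0.400 between probe sets of a gene, and at 0.78 for Acot1, whose f/f muscle signal of 7.56 lay just above the floor of 7.51.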

How the results depend on the processing

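Over the scalings, floors, gene summaries and fold thresholds tried, the number of the 7 genes at least 2-fold lower in d/d heart was 4 to 6, against 5 as reported, and 0 were higher under any of them. It was 4 with the median over probe sets, which takes in the second Angptl4 probe set at the floor, and without probe sets that can share sequence. In muscle 2 genes were lower, and 1 at a 3-fold threshold or without probe sets that can share sequence, an alternative added after seeing the data that leaves Angptl4 without a measured probe set. At a 1.5-fold threshold 1 gene, Acot1, was higher in d/d muscle. In f/f heart against f/f muscle 6 genes were higher, 2 at a 3-fold threshold and 4 to 6 otherwise. The 2-fold counts over all genes moved with the settings too. Between 167 of 13825 and 1921 of 16810 were lower in d/d heart, and between 83 of 14234 and 1766 of 16880 in d/d muscle. Between 960 of 14356 and 3420 of 14441 were higher in f/f heart than in f/f muscle. The number of member probe sets called between heart and muscle was 2 as reported, 6 with no scaling, 5 with a variance trend in eBayes, 4 with the floor at the 60th percentile, 1 with quantile normalization, and 0 with the floor at the 20th percentile, with no filter on low values or with genotype left out of the model; the cause was not tested. For these alternatives the share of all probe sets called was not worked out. No direction of a member past 2-fold reversed. Angptl4 ran from -1.75 to -0.85 in heart and from -2.51 to -1.17 in muscle, Acot1 from -3.06 to -2.05 and Ucp3 from -4.45 to -3.05 in heart. The end nearest 0 came from the median over probe sets for Angptl4 in heart, from the floor at the 60th percentile for Angptl4 in muscle, and from a pseudocount in place of the floor for Acot1 and Ucp3, and the far end of Ucp3 from the median or mean over its probe sets. The median of the fatty acid list ran from -0.61 to -0.53 in heart and from -0.06 to 0.05 in muscle. No paired analysis of d/d against f/f was possible because they have 1 array each per tissue and the labels do not name the animals. The comparison of heart with muscle has genotype as a block, and its value without it is given above. With 1 array a group, signal near the floor and the spread between animals limit every value.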
